A study of Mus musculus with 9 samples.

Results

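The 48 genes described here carry the cAMP signal of a cell from the G proteins and adenylyl cyclases that set its level to the transcription factor CREB and its targets. They were chosen by name and role, out of 46626 named genes in the deposited table. They are 3 G protein alpha subunits, 4 adenylyl cyclases, 2 catalytic and 4 regulatory subunits of protein kinase A (PKA), 9 phosphodiesterases, 2 EPAC exchange factors, 4 genes of the CREB family and its coactivator, 3 CRTC coactivators, 3 salt-inducible kinases, 5 A-kinase anchoring proteins (AKAPs), 3 Nr4a receptors, 4 other CREB targets and 2 RGS proteins. All 48 had a row in the table, and 42 reached 1 RPKM (reads scaled by transcript length in kilobases and by library depth) in at least 3 libraries and were tested.

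RNA came from haematopoietic stem cells (HSCs), the cells that maintain all blood lineages. They were sorted from C57BL/6 mouse marrow in 3 groups of 3 libraries. The groups are those of the sample titles. The column names of the table match the samples' descriptions but carry 1 shared ending (HSC-Y-S) whatever the group, so they do not themselves show which libraries were old or treated, and every comparison rests on the titles. The BRL37344 old group were mice of 15 to 20 months when a subcutaneous osmotic pump was placed, given BRL37344, an agonist of the β3-adrenergic receptor, at 2.4 mg per kg per day for 12 weeks, with a further pump placed at week 6. The saline old group were mice of the same age range with saline pumps, and the saline young group had saline pumps placed at 2 months. The labels name no allele or transgene in any group, and a young group given BRL37344 was not analysed here. Nor do they say whether replicates were separate mice, pools or splits, so p-values measure a spread between libraries that may be technical.

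Receptors coupled to Gs, the β-adrenergic receptors among them, activate adenylyl cyclases, which make cAMP, and receptors coupled to Gi restrain them. cAMP frees the catalytic subunits of PKA from their regulatory subunits and also activates the EPAC exchange factors, while phosphodiesterases break cAMP down and AKAPs hold PKA at particular places in the cell. PKA phosphorylates CREB and, by inhibiting the salt-inducible kinases, lets the CRTC coactivators enter the nucleus. CREB then acts through cAMP response elements in promoters, and some of its targets, such as Sik1, Crem, Pde4 and RGS genes, damp the signal again. Sympathetic nerves of the marrow are known to act on its stromal and blood cells through β-adrenergic receptors.

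Given in units of 1e6 reads, the values implied depths of 16.0 to 44.9 in BRL37344 old, 15.3 to 41.4 in saline old and 12.2 to 22.4 in saline young libraries, a 3.68-fold range, so low genes were less precise in the shallow libraries. All 12 HSC markers examined were tested, with summed levels of 1048 to 1571 RPKM in BRL37344 old, 1132 to 1313 in saline old and 1225 to 1476 in saline young libraries. All 13 neutrophil markers were tested too. They summed to between 587 and 6197 RPKM in BRL37344 old, 1090 and 1354 in saline old and 1271 and 20070 in saline young libraries, and replicate 2 of BRL37344 old and replicate 3 of saline young stood highest. The log2 changes and calls below are therefore given also without these 2 libraries. In such sorted populations, fewer cells of a type and less RNA per cell cannot be told apart. Of 8 megakaryocyte markers 7 were tested, and their sums did not overlap between saline old (478 to 720 RPKM) and saline young libraries (239 to 372 RPKM), with 343 to 803 RPKM in BRL37344 old. Immediate early genes, which can rise when cells are handled, summed to 286 to 310 RPKM in BRL37344 old, 231 to 294 in saline old and 253 to 292 in saline young libraries. The sums of monocyte and macrophage markers were 29.6 to 149, 36.4 to 66.1 and 62.4 to 321 RPKM in BRL37344 old, saline old and saline young, and those of B and plasma cell markers 53.2 to 331, 50.01 to 62.9 and 59.7 to 678 RPKM. T and NK cell, erythroid, and endothelial and stromal markers overlapped between all groups in their sums, and Ebf1, Gzma and Kdr stayed under 0.1 RPKM in all 9 libraries.

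The cAMP response element, the site CREB binds, was looked for in promoters from RefSeq (build GRCm38.p6), each running from 250 bases before to 50 after a start site. The full element TGACGTCA, which reads the same on both strands, and its shorter form, TGACG or CGTCA on the other strand, were searched, so that each full element holds the shorter form on both strands. Some genes, among them Rgs1, Gem, Sik1 and Crem, had no matched promoter and were not searched. Promoters were matched for 37 of the 48 genes. The full element stood in those of 2 of the 37 genes (5.41%), Prkar1a and Areg, against 2.03% of 27025 genes with a promoter and 3.64% of the 8990 tested ones. The shorter form stood in 22 of the 37 (59.5%), against 23.1% of all and 35.9% of tested genes. A gene with several start sites has several windows and so more chances of a match, and the 37 genes had 63. Counted by window, the full element stood in 4.76% of the 63, against 1.79% of all 32851, and the shorter form in 41.3%, against 20.8%. Windows of a gene can overlap, and 2 windows of Prkar1a hold the same full element, which was counted in each. No count by window was made for tested genes alone. The 48 genes include some listed because they are CREB targets, among them Areg and the 3 Nr4a genes. The shares among the 37 genes are therefore not independent of how the list was chosen. A match is a description of these letters and not a bound site. The promoters of the 2 genes with the full element, of the 3 Nr4a genes, with 4 short elements in each window shown, and of Rgs2, which held 2, are shown 5′ to 3′, with the full element in capitals in Prkar1a and Areg and the short elements in capitals in the others.
Prkar1a (chr11:109650699-109650998, plus strand): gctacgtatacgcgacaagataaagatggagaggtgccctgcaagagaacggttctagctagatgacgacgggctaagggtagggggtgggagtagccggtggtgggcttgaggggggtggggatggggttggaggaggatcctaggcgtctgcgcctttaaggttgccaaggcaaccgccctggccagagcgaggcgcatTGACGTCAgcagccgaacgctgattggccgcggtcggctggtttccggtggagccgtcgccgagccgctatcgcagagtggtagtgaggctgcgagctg
Areg (chr5:91139349-91139648, plus strand): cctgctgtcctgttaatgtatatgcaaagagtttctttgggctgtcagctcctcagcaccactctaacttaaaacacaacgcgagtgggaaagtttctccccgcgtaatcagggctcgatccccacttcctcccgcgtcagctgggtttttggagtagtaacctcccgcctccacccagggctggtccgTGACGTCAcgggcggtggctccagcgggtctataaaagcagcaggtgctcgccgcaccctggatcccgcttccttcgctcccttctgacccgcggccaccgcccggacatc
Nr4a1 (chr15:101266596-101266895, plus strand): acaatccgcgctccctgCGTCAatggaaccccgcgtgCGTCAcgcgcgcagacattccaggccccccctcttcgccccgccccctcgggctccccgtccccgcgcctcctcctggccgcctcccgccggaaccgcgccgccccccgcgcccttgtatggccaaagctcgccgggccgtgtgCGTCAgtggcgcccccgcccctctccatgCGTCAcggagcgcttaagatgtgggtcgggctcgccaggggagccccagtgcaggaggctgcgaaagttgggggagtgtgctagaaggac
Nr4a2 (chr2:57123954-57124253, minus strand): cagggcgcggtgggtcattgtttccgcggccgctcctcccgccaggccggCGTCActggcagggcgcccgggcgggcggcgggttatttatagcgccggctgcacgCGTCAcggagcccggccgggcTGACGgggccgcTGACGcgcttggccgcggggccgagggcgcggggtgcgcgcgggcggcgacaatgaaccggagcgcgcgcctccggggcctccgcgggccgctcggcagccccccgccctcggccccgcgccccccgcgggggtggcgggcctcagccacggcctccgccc
Nr4a3 (chr4:48045055-48045354, plus strand): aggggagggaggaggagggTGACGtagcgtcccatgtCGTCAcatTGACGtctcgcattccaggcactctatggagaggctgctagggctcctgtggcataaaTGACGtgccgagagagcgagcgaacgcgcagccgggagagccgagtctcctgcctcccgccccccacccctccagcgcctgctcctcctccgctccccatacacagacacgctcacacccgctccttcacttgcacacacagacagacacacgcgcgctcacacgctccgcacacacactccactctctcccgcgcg
Rgs2 (chr1:144004100-144004399, minus strand): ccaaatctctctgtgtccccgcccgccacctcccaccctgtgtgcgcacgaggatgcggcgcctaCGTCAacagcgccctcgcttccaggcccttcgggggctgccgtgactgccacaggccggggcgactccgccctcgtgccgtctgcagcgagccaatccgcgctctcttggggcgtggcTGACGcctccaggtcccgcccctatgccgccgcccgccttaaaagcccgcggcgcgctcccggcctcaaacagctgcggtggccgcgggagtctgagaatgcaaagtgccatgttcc
Counted from the start site as 0, the full element began at -49 in Prkar1a and at -61 in Areg, and the short elements at -233, -213, -69 and -40 in Nr4a1. In Nr4a2 they began at -200, -144, -123 and -111, in Nr4a3 at -231, -213, -205 and -147, and in Rgs2 at -185 and -67. The 6 genes lay far apart in level. Prkar1a averaged 266 RPKM over the 9 libraries and Rgs2 11.9 RPKM, while Nr4a1 reached at most 5.17 RPKM, Nr4a2 at most 1.82 and Nr4a3 at most 0.184. Areg, which encodes the growth factor amphiregulin, was listed at the table's offset of 0.0001 in all 9 libraries, a value at which 0 reads were assigned, where 3 reads would have given 0.0658 to 0.242 RPKM. The 37 genes of the mitochondrial genome were also listed at the offset, so the offset alone does not show that a gene is silent.

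In saline old against saline young HSCs, 1 of the 42 tested genes was called, Rgs1, which encodes a regulator that speeds the switching off of G protein alpha subunits. It was higher in all 3 saline old libraries, at 1.91 times the mean of the saline young ones. Changes were fitted with limma on log2(RPKM + 0.5), a scale that understates the change of low genes. Over all 13516 tested genes, 1.18% were called higher and 0.4% lower (Benjamini-Hochberg adjusted p up to 0.05), so that 1 call in 42 is near the background. Of the 42 genes, 18 had positive and 24 negative log2 changes with a median of -0.06, against 47.3% positive, 52.7% negative and a median of -0.02 over all tested genes. At an unadjusted p under 0.05 there were 6 higher and 10 lower genes, against 6.44% and 8.59% of all tested genes. The libraries of both groups did not overlap for 8 higher genes (19.05%) and 9 lower ones (21.4%), against 9.39% and 10.9% of all tested genes. The 9 lower ones were Gnai2, Adcy3, Adcy7, Prkar2a, Crtc3, Sik1, Sik2, Akap9 and Akap13, and the 8 higher ones Rgs1, Gem, Nr4a2, Fosl2, Pde4a, Pde8a, Gnai3 and Akap1, named after their values were seen. Nr4a2, counted among the higher ones, passed the filter through old libraries alone. Since the genes were chosen with earlier results of these data known, no test was made over the list.

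In BRL37344 old against saline old HSCs, 0 of the 42 genes were called by limma, with a smallest adjusted p of 0.839, against 0% of all tested genes called higher and 0% called lower. At an unadjusted p under 0.05, 762 of all tested genes passed. Among the 42 there were 7 higher (16.7%) and 0 lower ones, against 2.9% and 2.74% of all tested genes. Crebbp, counted among the 7 higher ones, passed the filter mainly through BRL37344 old libraries, and a saline old library stood at the offset. The libraries did not overlap for 5 genes (11.9%), all higher in BRL37344 old, against 4.82% higher and 5.28% lower over all tested genes: Gnai2, Pde4a, Sik1, Akap9 and Akap13. Of the 42 changes, 27 were positive and 15 negative with a median of 0.14, against 51% positive, 49% negative and a median of 0.01 over all tested genes. This comparison and that of saline old with saline young use the same saline old libraries, so each one's values are given side by side and neither bears on the other.

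In BRL37344 old against saline young HSCs, Rgs1 was again the 1 gene called, higher in BRL37344 old, against 0.695% of all tested genes called higher and 0.074% lower. Of the 42 genes, 22 changes were positive and 20 negative, with a median of 0.01, against 44.5% positive, 55.5% negative and a median of -0.04 over all tested genes. Unadjusted, 5 higher genes and 1 lower one had a p under 0.05 (5.25% and 4.13% of all tested genes). The libraries did not overlap for 6 higher genes (Rgs1, Gem, Nr4a2, Pde4a, Crem and Crebbp) and 2 lower ones (Adcy3 and Adcy7), against 7.29% and 7.88% of all tested genes. Of the higher genes, Nr4a2 and Crebbp passed the filter through old libraries alone. This comparison shares its libraries with the other comparisons and adds no independent evidence to them.

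**Figure D1:**
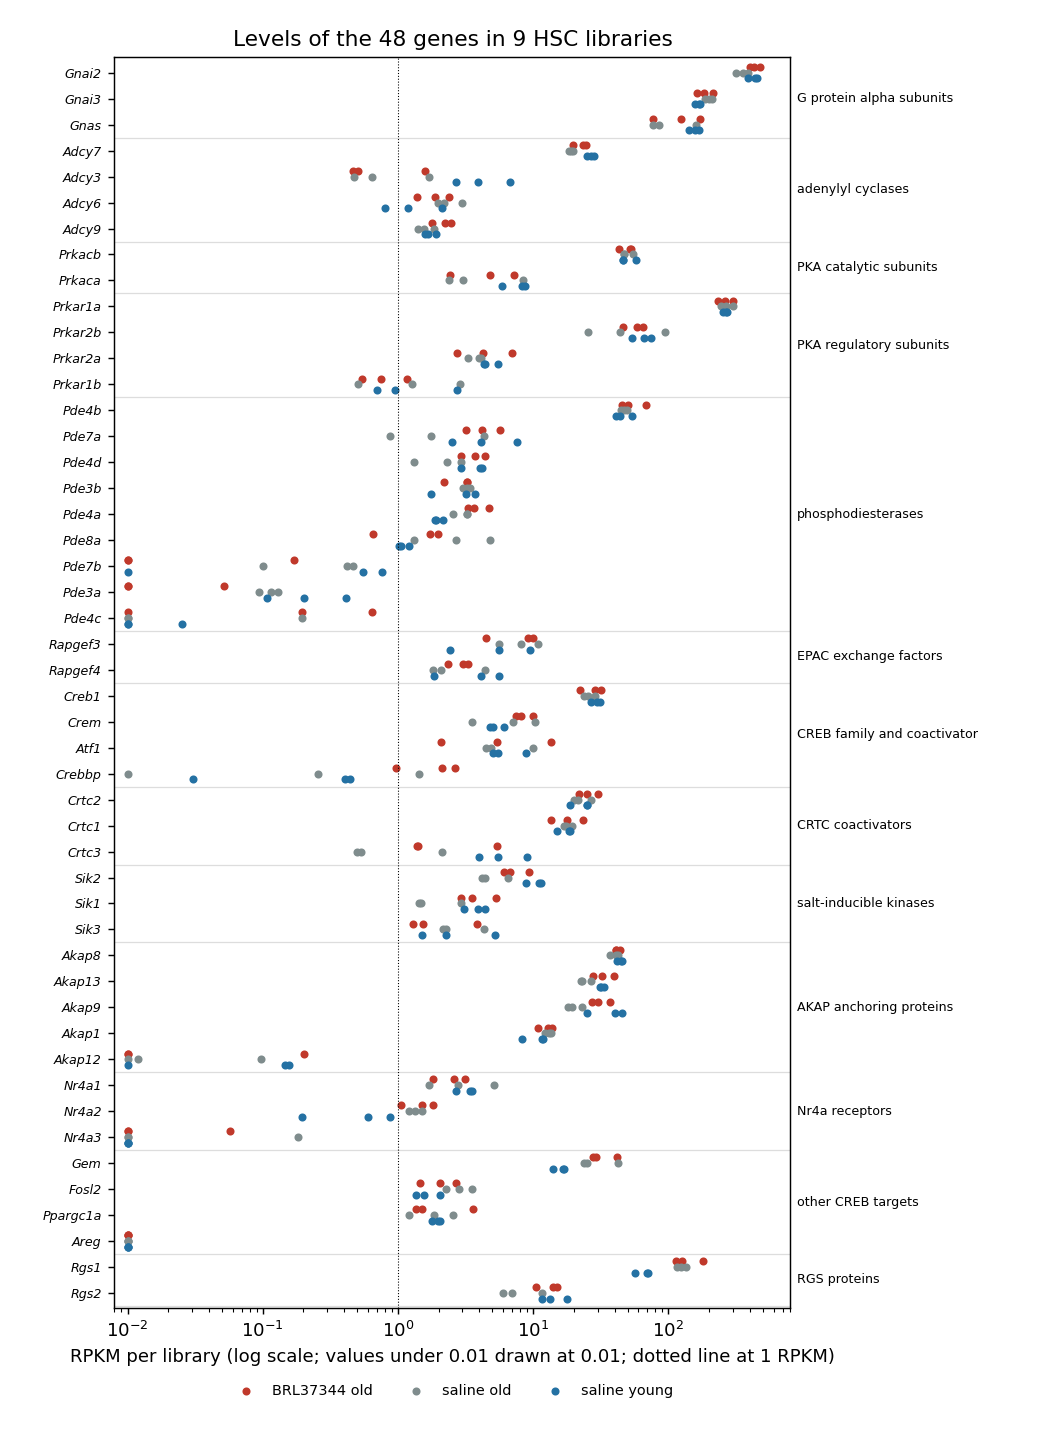
Level of each of the 48 genes in RPKM (log scale) in the 9 libraries, grouped by role; each point is 1 library, coloured by group, values under 0.01 are drawn at 0.01, and the dotted line marks 1 RPKM. Gnai2, Prkar1a, Gnai3, Gnas and Rgs1 stand highest, and the 6 untested genes, Pde3a, Pde4c, Pde7b, Akap12, Nr4a3 and Areg, lie below 1 RPKM in every library.

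At the top of the pathway the inhibitory alpha subunits outweighed the stimulatory one. Gnai2 (chr9:107614125-107635367, minus strand, GRCm38 as for all positions), a main Gi alpha subunit of blood cells, had the highest level of all 48 genes, averaging 406 RPKM. Its levels were 399.5, 480.0 and 429.7 RPKM in BRL37344 old, 388, 354 and 316 RPKM in saline old, and 389, 456 and 440.0 RPKM in saline young libraries. The saline old libraries were the lowest 3, and the highest of them lay just under the lowest saline young one. The log2 change was 0.31 ± 0.11 (SE) in BRL37344 old against saline old (limma adjusted p = 0.839), in which the groups did not overlap, and 0.24 without the 2 libraries highest in neutrophil markers. The related Gnai3 averaged 184 RPKM, with 162 to 216 RPKM in BRL37344 old, 187 to 212 in saline old and 157 to 172 in saline young libraries. Gnas, which encodes the stimulatory alpha subunit, averaged 129 RPKM. It varied widely in the old groups, with 77.5, 125 and 172 RPKM in BRL37344 old and 161, 86.0 and 76.5 RPKM in saline old, but only 168, 141 and 157 RPKM in saline young libraries. The annotated transcripts Nespas and Gm20721 overlap 8.83% and 13.1% of its exonic bases on the opposite strand and stayed under 0.570 RPKM.

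Among the adenylyl cyclases, Adcy7 (chr8:88272403-88329962, plus strand), a form that the beta-gamma subunits of G proteins can stimulate, made up most of the signal. Its level was 24.6, 23.6 and 19.6 RPKM in BRL37344 old, 19.8, 18.9 and 18.4 RPKM in saline old, and 25.2, 28.1 and 26.9 RPKM in saline young libraries. Every saline young library stood above every old one. The log2 change was -0.48 ± 0.13 in saline old against saline young (adjusted p = 0.134), and -0.47 without the 2 libraries highest in neutrophil markers (adjusted p = 0.402). Adcy3 (chr12:4133103-4213525, plus strand), known best as the cyclase of olfactory neurons, had 0.465, 1.59 and 0.510 RPKM in BRL37344 old, 1.71, 0.477 and 0.642 RPKM in saline old, and 2.69, 3.88 and 6.72 RPKM in saline young libraries. Here too the old and young libraries did not overlap, with log2 changes of -1.79 ± 0.46 in saline old (adjusted p = 0.1) and -1.88 ± 0.46 in BRL37344 old (adjusted p = 0.136), each against saline young. Without the 2 libraries highest in neutrophil markers, of which the saline young one had most Adcy3, they were -1.47 (adjusted p = 0.315) and -1.92 (adjusted p = 0.329). Cenpo, a centromere gene on the opposite strand, overlaps 22.1% of the exonic bases of Adcy3 and averaged 16.8, 17.0 and 20.4 RPKM in BRL37344 old, saline old and saline young, and in unstranded data the reads of both genes cannot be told apart there. Adcy6 and Adcy9, which lay between 0.808 and 2.96 RPKM, did not separate the groups by level in any comparison. The summed level of the 4 cyclases was 24.2 to 30.0 RPKM in BRL37344 old, 22.7 to 25.3 in saline old and 30.7 to 37.6 in saline young libraries, without overlap between old and young (exact two-sided permutation p = 0.1 for each old group, the smallest that 3 against 3 libraries can give).

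The most abundant PKA subunits differed by less than the spread between libraries. Prkacb, which encodes the more abundant catalytic subunit here, had 53.4, 52.4 and 43.5 RPKM in BRL37344 old, 55.1, 47.2 and 46.9 RPKM in saline old, and 46.6, 57.7 and 46.4 RPKM in saline young libraries. The group means were 49.7 ± 5.44, 49.8 ± 4.65 and 50.2 ± 6.48 RPKM (SD, n = 3) in BRL37344 old, saline old and saline young. Prkar1a, the regulatory subunit RIα and the gene with a full cAMP response element shown above, had 298, 264 and 232 RPKM in BRL37344 old, 300.0, 266 and 247 RPKM in saline old, and 270, 267 and 252 RPKM in saline young libraries. These groups overlapped throughout. Prkaca, the other catalytic subunit, was uneven within groups, with 2.41, 4.81 and 7.27 RPKM in BRL37344 old, 8.38, 3.03 and 2.38 RPKM in saline old, and 8.77, 8.32 and 5.90 RPKM in saline young libraries. Prkar2b, the regulatory subunit RIIβ, was similar in this, with 46.4, 58.8 and 64.9 RPKM in BRL37344 old, 94.7, 43.7 and 25.5 RPKM in saline old, and 73.9, 54.3 and 65.6 RPKM in saline young libraries. Replicate 1 of saline old, the shallowest library of its group, was the highest of the saline old libraries for Gnas, Prkaca and Prkar2b, which were picked out after their values were seen. Prkar2a, for the subunit RIIα, had 2.75 to 7.01 RPKM in BRL37344 old, 3.31 to 4.12 in saline old and 4.31 to 5.50 in saline young libraries, and Prkar1b lay between 0.506 and 2.88 RPKM.

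Of the 9 phosphodiesterases, Pde4b, a cAMP-specific enzyme prominent in leukocytes, held 76.3%, 77.0% and 75.5% of the summed level on average in BRL37344 old, saline old and saline young. It had 68.6, 50.3 and 45.7 RPKM in BRL37344 old, 44.6, 47.0 and 49.8 RPKM in saline old, and 54.2, 43.8 and 41.1 RPKM in saline young libraries, with overlap in every comparison. Pde4a (chr9:21165714-21213248, plus strand), of the same family, was low but ordered, with 3.32, 4.73 and 3.67 RPKM in BRL37344 old, 3.23, 3.26 and 2.54 RPKM in saline old, and 1.91, 2.16 and 1.88 RPKM in saline young libraries. No library of a group overlapped with those of the next, although the lowest BRL37344 old and the highest saline old library nearly met. The log2 change was 0.82 ± 0.24 in BRL37344 old against saline young (adjusted p = 0.231), and without the 2 libraries highest in neutrophil markers it was 0.66 (adjusted p = 0.846). Pde4d had 2.92, 3.70 and 4.42 RPKM in BRL37344 old, 2.31, 1.32 and 2.94 RPKM in saline old, and 2.93, 4.17 and 4.02 RPKM in saline young libraries. The highest saline old library just passed the lowest of each other group, and the log2 change was 0.67 ± 0.30 in BRL37344 old against saline old (adjusted p = 0.839), and 0.66 without the 2 libraries highest in neutrophil markers. Pde3b, Pde7a and Pde8a lay between 0.657 and 7.61 RPKM. Pde3a, Pde4c and Pde7b never passed 0.763 RPKM. Pde3a was listed at 0.0002 RPKM in replicates 1 and 2 of BRL37344 old and at 0.0515 RPKM or more in the other libraries. Pde4c and Pde7b were each listed under 0.01 RPKM in libraries of more than 1 group.

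Both EPAC genes were detected. Rapgef3, which encodes EPAC1, had 10.04, 9.13 and 4.49 RPKM in BRL37344 old, 8.09, 5.55 and 10.9 RPKM in saline old, and 2.42, 9.51 and 5.59 RPKM in saline young libraries. Rapgef4, for EPAC2, lay between 1.81 and 5.55 RPKM. In both genes the groups overlapped in every comparison.

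Creb1, the factor itself, was steady, with 31.6, 28.6 and 22.2 RPKM in BRL37344 old, 28.7, 23.7 and 25.6 RPKM in saline old, and 31.4, 29.6 and 27.0 RPKM in saline young libraries. The group means of 27.5 ± 4.82, 26.0 ± 2.54 and 29.3 ± 2.21 RPKM (SD, n = 3) in BRL37344 old, saline old and saline young lay within the spread. The related Crem lay between 7.46 and 9.92 RPKM in BRL37344 old, 3.56 and 10.3 in saline old, and 4.82 and 6.13 in saline young libraries, and Atf1 between 2.08 and 13.6 RPKM over all 9. Crebbp encodes CBP, an acetyltransferase that binds phosphorylated CREB and is used by many other factors. It was listed at 0.966, 2.64 and 2.14 RPKM in BRL37344 old, 0.0011, 0.258 and 1.44 RPKM in saline old, and 0.0306, 0.404 and 0.439 RPKM in saline young libraries. The log2 change was 1.35 ± 0.54 in BRL37344 old against saline old (adjusted p = 0.839) and 1.59 ± 0.54 against saline young (adjusted p = 0.359). Crebbp passed the filter in 3 libraries, 2 of them of BRL37344 old, and 1 saline old library stood at the offset, where the size of a log2 change depends on the constant added. Without the 2 libraries highest in neutrophil markers it no longer passed the filter. Its relative Ep300, which is not among the 48 genes, had means of 1.68 ± 1.05, 1.49 ± 0.817 and 2.36 ± 0.273 RPKM (SD, n = 3) in BRL37344 old, saline old and saline young.

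**Figure D2:**
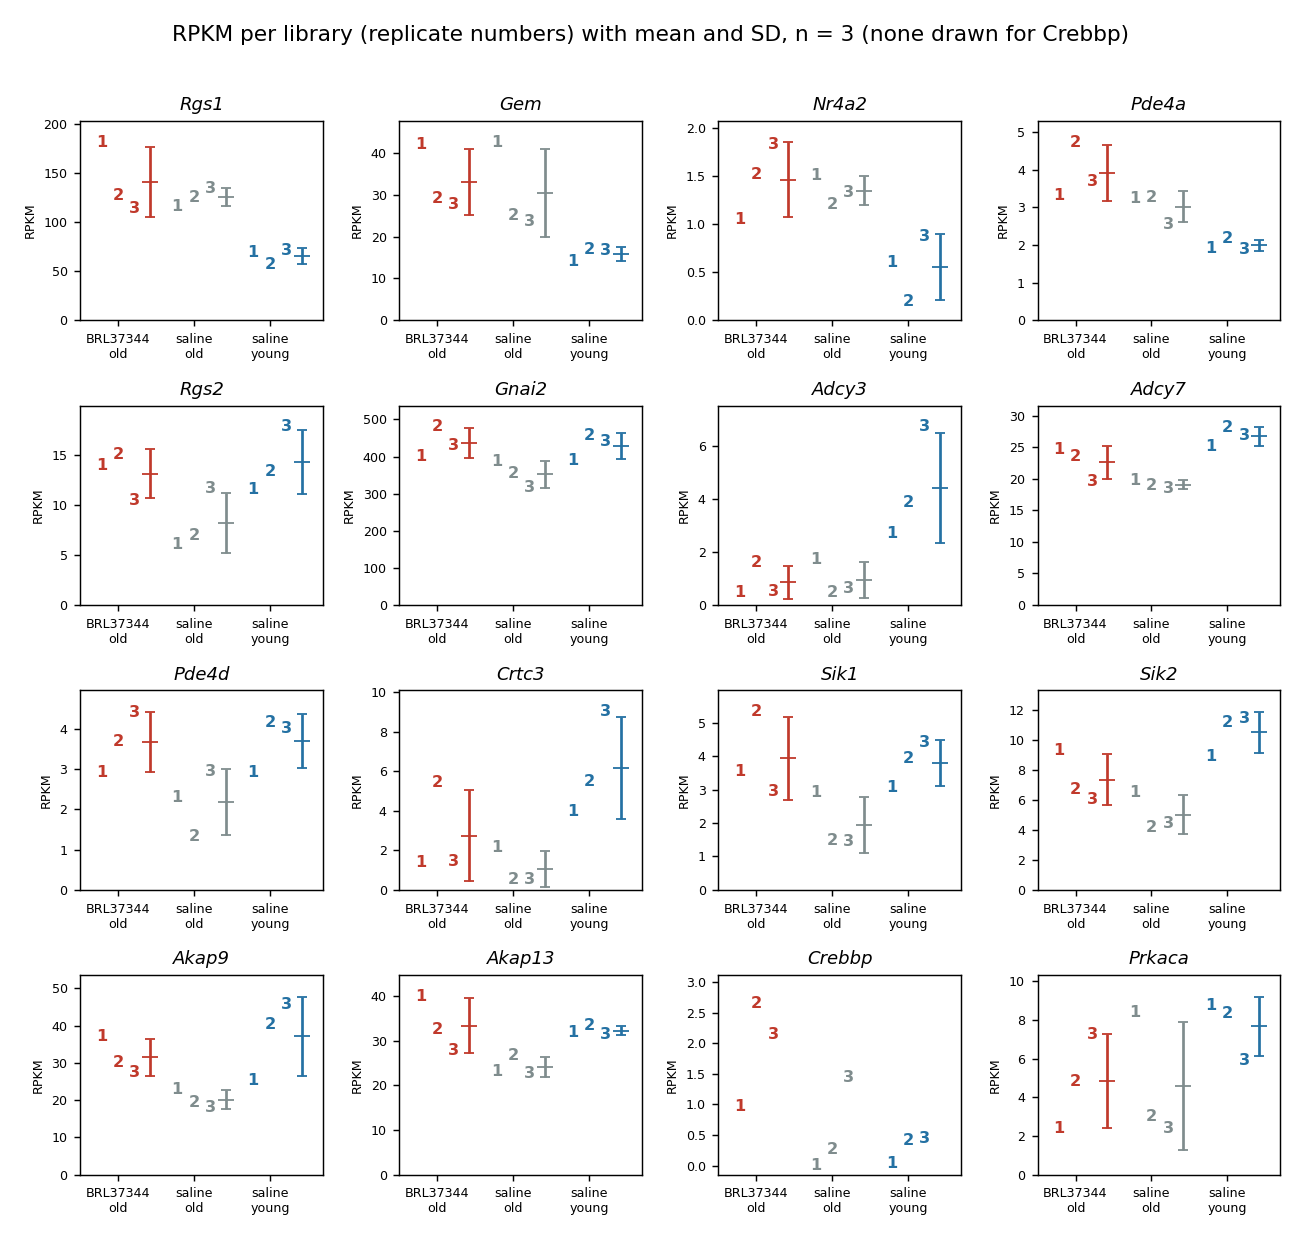
RPKM of 16 of the genes in each library, marked by its replicate number, with the mean and SD of the 3 libraries beside them; Crebbp has no mean drawn, as 1 library was at the offset. All saline old and BRL37344 old libraries lie above all saline young ones in Rgs1, Gem, Nr4a2 and Pde4a and below them in Adcy3 and Adcy7, while in Sik1, Akap9, Akap13 and Gnai2 the saline old libraries lie below both other groups.

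The CRTC coactivators, which CREB needs for much of its response, were led by Crtc2, with 21.7, 30.0 and 25.1 RPKM in BRL37344 old, 21.5, 20.0 and 26.7 RPKM in saline old, and 18.6, 25.0 and 25.0 RPKM in saline young libraries. Crtc1 lay close below, between 13.7 and 23.4 RPKM, and neither separated the groups. Crtc3 (chr7:80586627-80688877, minus strand) did, with 1.40, 5.42 and 1.42 RPKM in BRL37344 old, 2.13, 0.501 and 0.533 RPKM in saline old, and 3.97, 5.49 and 9.003 RPKM in saline young libraries. Every saline old library lay below every saline young one, and replicate 2 of BRL37344 old reached the young range. The log2 change was -2.18 ± 0.54 in saline old (adjusted p = 0.0866) and -1.19 ± 0.54 in BRL37344 old (adjusted p = 0.532), each against saline young. In saline old against saline young the adjusted p was 0.0272 without replicate 1 of saline old, and between 0.0537 and 0.282 with any other library left out. The BRL37344 old and saline young libraries with most Crtc3 were those with most neutrophil markers, and without both the changes were -1.89 in saline old (adjusted p = 0.209) and -1.44 in BRL37344 old (adjusted p = 0.693).

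The salt-inducible kinases phosphorylate the CRTC proteins and keep them in the cytoplasm. Sik2 (chr9:50892801-51009073, minus strand), the most abundant of them here, had 9.31, 6.71 and 6.04 RPKM in BRL37344 old, 6.49, 4.16 and 4.41 RPKM in saline old, and 8.90, 11.2 and 11.4 RPKM in saline young libraries. Saline old and saline young did not overlap, and replicate 1 was highest in each old group. The log2 changes were -1.01 ± 0.24 in saline old against saline young (adjusted p = 0.0796), 0.51 ± 0.24 in BRL37344 old against saline old (adjusted p = 0.839) and -0.50 ± 0.24 in BRL37344 old against saline young (adjusted p = 0.558). The adjusted p of saline old against saline young was 0.0298 without replicate 1 of saline old, and between 0.0719 and 0.261 with any other library left out. Without the 2 libraries highest in neutrophil markers the change was -0.95 in saline old against saline young (adjusted p = 0.332), 0.56 in BRL37344 old against saline old and -0.39 in BRL37344 old against saline young. Ppp2r1b, a phosphatase subunit gene on the opposite strand, overlaps 15.0% of the exonic bases of Sik2 and averaged 31.2 ± 2.29, 36.8 ± 2.699 and 43.6 ± 3.38 RPKM (SD, n = 3) in BRL37344 old, saline old and saline young, and its part in the Sik2 values was not tested. Sik1 (chr17:31844250-31855804, minus strand), itself a CREB target, had 3.54, 5.33 and 2.93 RPKM in BRL37344 old, 2.92, 1.49 and 1.44 RPKM in saline old, and 3.06, 3.92 and 4.41 RPKM in saline young libraries. The highest saline old library lay just below the lowest of each other group. The log2 change of Sik1 was 0.87 ± 0.31 in BRL37344 old against saline old (adjusted p = 0.839), and 0.66 without the 2 libraries highest in neutrophil markers. Sik3 lay between 1.29 and 5.23 RPKM and overlapped in every comparison. Summed, the 3 kinases gave 12.8 to 14.4 RPKM in BRL37344 old, 7.79 to 13.7 in saline old and 16.6 to 18.1 in saline young libraries (exact two-sided permutation p = 0.1 for each old group against saline young, and 0.3 between the old groups).

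The anchoring proteins split into steady and variable members. Akap8, a nuclear AKAP, had 43.6, 41.1 and 41.2 RPKM in BRL37344 old, 36.8, 41.3 and 42.5 RPKM in saline old, and 45.5, 41.7 and 44.5 RPKM in saline young libraries. Akap1, which anchors PKA at mitochondria, lay between 8.21 and 13.7 RPKM. It had 10.8 to 13.7 RPKM in BRL37344 old, 12.3 to 13.6 in saline old and 8.21 to 11.9 in saline young libraries. Its saline old libraries lay above its saline young ones without overlap. Akap9 (chr5:3928054-4081310, plus strand), a scaffold of the Golgi and centrosome, had 37.1, 30.1 and 27.3 RPKM in BRL37344 old, 23.0, 19.3 and 18.1 RPKM in saline old, and 25.2, 40.4 and 45.7 RPKM in saline young libraries. All saline old libraries lay below all others, with log2 changes of 0.63 ± 0.22 in BRL37344 old against saline old (adjusted p = 0.839) and -0.83 ± 0.22 in saline old against saline young (adjusted p = 0.108). In the comparison with saline young, the adjusted p was 0.0271 without replicate 1 of saline young, the lowest of its group, and between 0.0647 and 0.325 with any other library left out. Without the 2 libraries highest in neutrophil markers the changes were 0.66 in BRL37344 old against saline old and -0.66 in saline old against saline young (adjusted p = 0.408). Akap13 (chr7:75455534-75754609, plus strand), which also activates the small GTPase RhoA, had 39.8, 32.4 and 27.8 RPKM in BRL37344 old, 23.1, 26.7 and 22.7 RPKM in saline old, and 31.8, 33.4 and 31.4 RPKM in saline young libraries. Here too the saline old libraries were the lowest 3, and the change in BRL37344 old against saline old was 0.45 ± 0.15 (adjusted p = 0.839), and 0.46 without the 2 libraries highest in neutrophil markers. Cyp51, a sterol synthesis gene on the opposite strand, overlaps 0.78% of the exonic bases of Akap9. Akap12 stayed at or under 0.202 RPKM and was at the offset in 4 libraries.

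The Nr4a receptors and the class of other CREB targets, apart from Gem, were low in these cells, at no more than 5.17 RPKM in any library. This does not hold for CREB targets at large. Pde4b and Rgs2, and Ier2 and Junb from the further list of CREB targets described below, passed that level in every library. Nr4a1, an orphan nuclear receptor and immediate early gene, had 1.81, 3.11 and 2.59 RPKM in BRL37344 old, 2.78, 5.17 and 1.69 RPKM in saline old, and 3.42, 3.53 and 2.68 RPKM in saline young libraries. Nr4a2 (chr2:57106830-57124003, minus strand) had 1.05, 1.52 and 1.82 RPKM in BRL37344 old, 1.504, 1.20 and 1.33 RPKM in saline old, and 0.597, 0.196 and 0.870 RPKM in saline young libraries. It passed the filter through the 6 old libraries alone, and the log2 change was 0.93 ± 0.35 in BRL37344 old against saline young (adjusted p = 0.403), and 1.118 without the 2 libraries highest in neutrophil markers (adjusted p = 0.738). Nr4a3 was at the offset in 7 libraries, all 3 saline young ones among them. Gem (chr4:11704457-11714752, plus strand), a small GTPase that restrains voltage-gated calcium channels, had the highest level of the 4 genes in the class of other CREB targets. It had 42.1, 29.1 and 27.8 RPKM in BRL37344 old, 42.6, 25.1 and 23.7 RPKM in saline old, and 13.95, 16.9 and 16.7 RPKM in saline young libraries. Every old library stood above every young one, and replicate 1 was highest in both old groups. Its log2 changes were 0.87 ± 0.24 in saline old (adjusted p = 0.122) and 1.01 ± 0.24 in BRL37344 old (adjusted p = 0.121), each against saline young, and the adjusted p of BRL37344 old was 0.0346 without replicate 1 of saline old and between 0.104 and 0.339 with any other library left out. Without the 2 libraries highest in neutrophil markers they were 0.91 in saline old (adjusted p = 0.339) and 1.13 in BRL37344 old (adjusted p = 0.434). The AP-1 gene Fosl2 and the metabolic coactivator Ppargc1a lay between 1.35 and 3.50 RPKM and between 1.22 and 3.60 RPKM.

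Rgs1 (ENSMUSG00000026358.13, chr1:144242296-144249242, minus strand, GRCm38), known for damping chemokine receptor signals in leukocytes, had 181, 127 and 114 RPKM in BRL37344 old, 116, 125 and 135 RPKM in saline old, and 69.4, 56.4 and 70.5 RPKM in saline young libraries. The old groups overlapped with each other and stood wholly above the young one. Means were 141 ± 35.7, 125 ± 9.24 and 65.4 ± 7.85 RPKM (SD, n = 3) in BRL37344 old, saline old and saline young. The log2 change was 0.94 ± 0.17 in saline old (adjusted p = 0.0227) and 1.08 ± 0.17 in BRL37344 old (adjusted p = 0.0153), each against saline young, and it was 0.14 ± 0.17 in BRL37344 old against saline old (adjusted p = 0.905). In saline old against saline young it lay between 0.83 and 0.99 under all 21 alternatives, but 8 of them put the adjusted p above the threshold. Among these were leaving out saline old replicate 2 (adjusted p = 0.0947) or 3 (0.0910), saline young replicate 1 (0.0605), 2 (0.111) or 3 (0.0662), or the 2 libraries highest in neutrophil markers (0.109). In BRL37344 old against saline young the call was lost under 6 of 21, among them without BRL37344 old replicate 2 (0.0518), saline young replicate 2 (0.0791) or 3 (0.0516), or the 2 libraries highest in neutrophil markers (0.142). Megakaryocyte markers, given above, also stood higher in saline old than in saline young libraries, and their part in the Rgs1 values was not tested.

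Rgs2 (ENSMUSG00000026360.9, chr1:143999338-144004161, minus strand, GRCm38) lies near Rgs1, acts mainly on Gq alpha subunits and is induced by cAMP in other cell types. Its highest level was in the saline young group, where that of Rgs1 was lowest. It had 14, 15.1 and 10.4 RPKM in BRL37344 old, 6.04, 6.97 and 11.6 RPKM in saline old, and 11.6, 13.4 and 17.8 RPKM in saline young libraries. Replicate 3 of saline old reached into both other groups. The log2 changes were 0.69 ± 0.27 in BRL37344 old against saline old (adjusted p = 0.839) and -0.79 ± 0.27 in saline old against saline young (adjusted p = 0.204). Without the 2 libraries highest in neutrophil markers they were 0.58 and -0.63 (adjusted p = 0.543 in saline old against saline young).

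**Figure D3:**
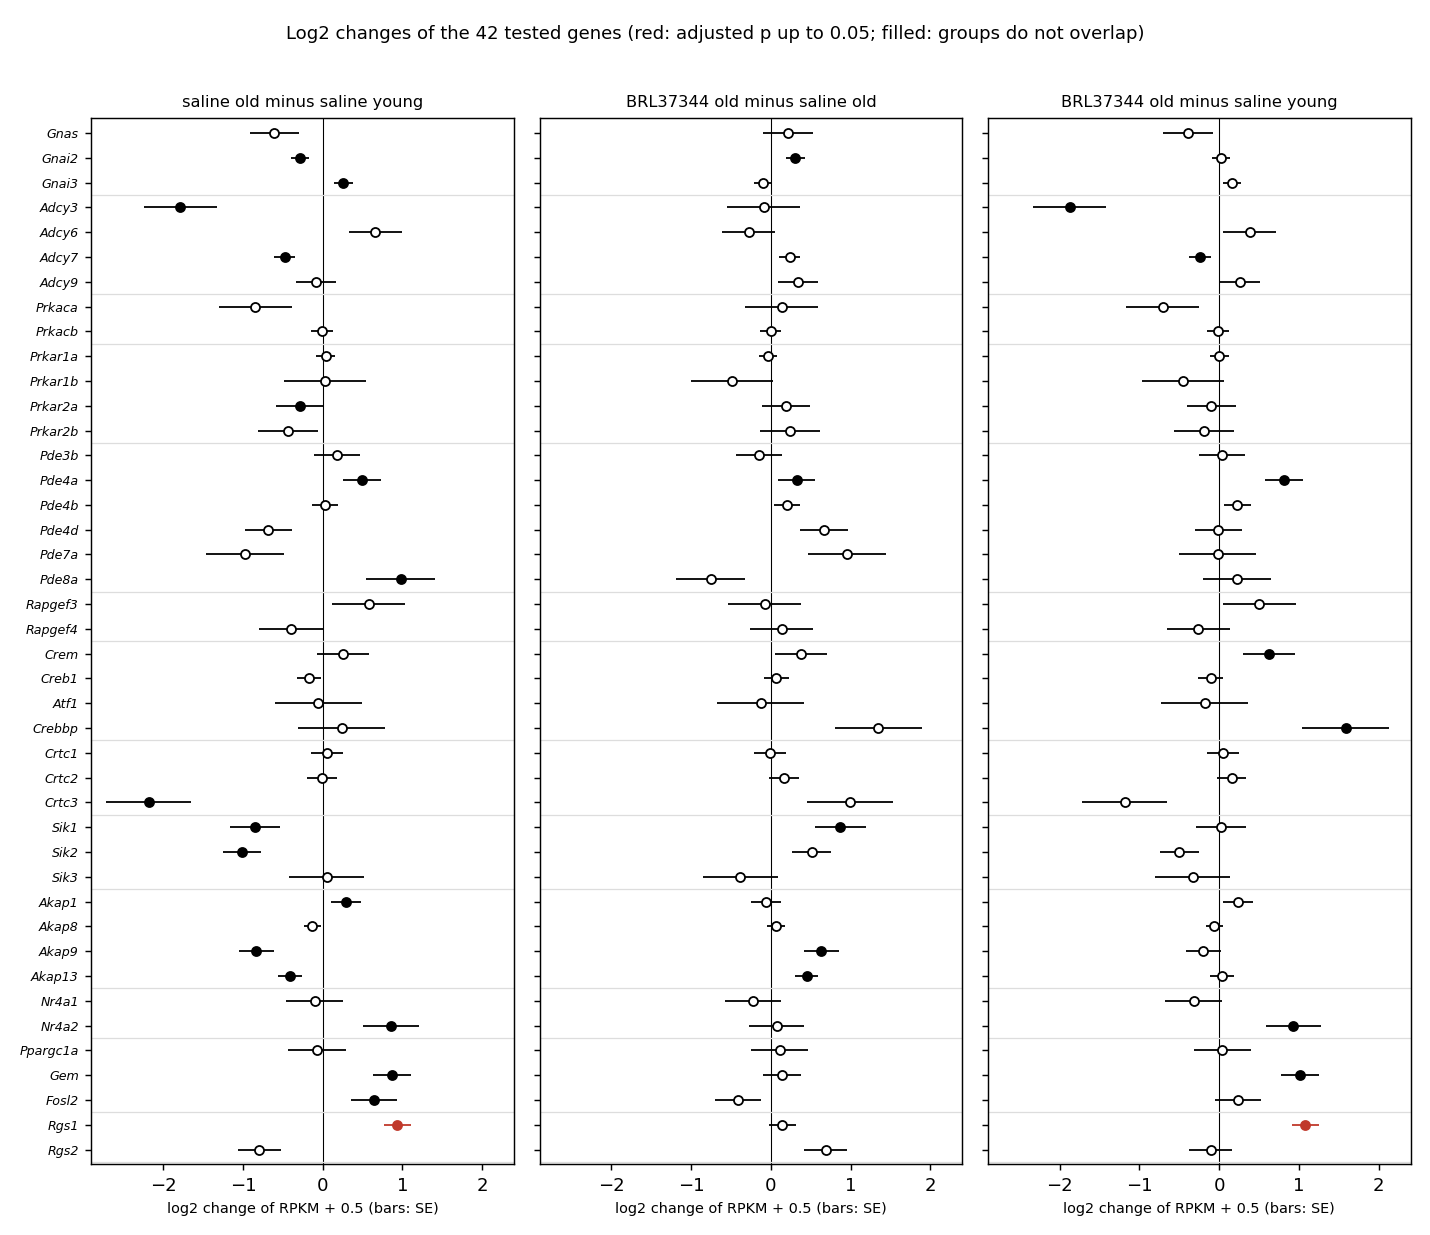
Log2 change of RPKM + 0.5 with its SE for the 42 tested genes, ordered by role, in saline old minus saline young, BRL37344 old minus saline old and BRL37344 old minus saline young; filled points mark genes whose libraries do not overlap and red marks an adjusted p up to 0.05. Rgs1 is the 1 red gene, at 0.94 and 1.08 against saline young, and in the middle panel the 5 filled points, Gnai2, Pde4a, Sik1, Akap9 and Akap13, all lie to the right.

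The share of each gene in the summed level of its class does not depend on how a library was scaled. Prkacb held 85.7% to 95.7% of the catalytic level in BRL37344 old, 86.8% to 95.2% in saline old and 84.2% to 88.7% in saline young libraries. Adcy7 held 78.6% to 87.2% of the cyclase level in BRL37344 old, 78.2% to 81.3% in saline old and 71.4% to 82.0% in saline young libraries. Adcy3 held 3.02% ± 1.99, 3.86% ± 2.54 and 12.6% ± 4.69 (SD, n = 3) in BRL37344 old, saline old and saline young. Crtc3 held 5.57% ± 3.995, 2.49% ± 2.13 and 12.95% ± 3.66 of the CRTC level in BRL37344 old, saline old and saline young. The old libraries did not overlap with the young ones for either gene (exact two-sided permutation p = 0.1 for each old group against saline young). The share of Sik1 among the kinases was 29.2% ± 9.40, 19.4% ± 1.76 and 21.96% ± 3.63 in BRL37344 old, saline old and saline young, and BRL37344 old and saline old did not overlap (p = 0.1, exact permutation). In all, 33 shares were examined in each comparison. In saline old against saline young, 8 did not overlap, of which 3 were lower (Adcy3, Crtc3 and Prkar2a) and 5 higher (Adcy6, Adcy9, Gnai3, Pde4a and Pde8a). Adcy6 held 6.86% ± 1.71, 9.95% ± 2.31 and 3.96% ± 1.66 of the cyclase level in BRL37344 old, saline old and saline young. In BRL37344 old against saline old, Sik1 and Gnai2 were higher and Pde3a lower without overlap. Pde3a was too low to be tested by level, and held at most 0.08% of the phosphodiesterase level in BRL37344 old and 0.20% in saline old. In BRL37344 old against saline young, Adcy9, Pde4a and Nr4a2 were higher and Adcy3, Crtc3, Pde3a and Nr4a1 lower. No shares were formed outside these classes, so the counts have no background of their own. They also include genes too low to be tested, such as Pde3a, which the percentages by level leave out. By level, 9.39% of all tested genes were higher and 10.9% lower without overlap in saline old against saline young. These figures were 4.82% and 5.28% in BRL37344 old against saline old, and 7.29% and 7.88% in BRL37344 old against saline young. Shares of a class sum to a fixed total, so they do not vary independently, and with 3 libraries a group no such p can pass 0.05.

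**Figure D4:**
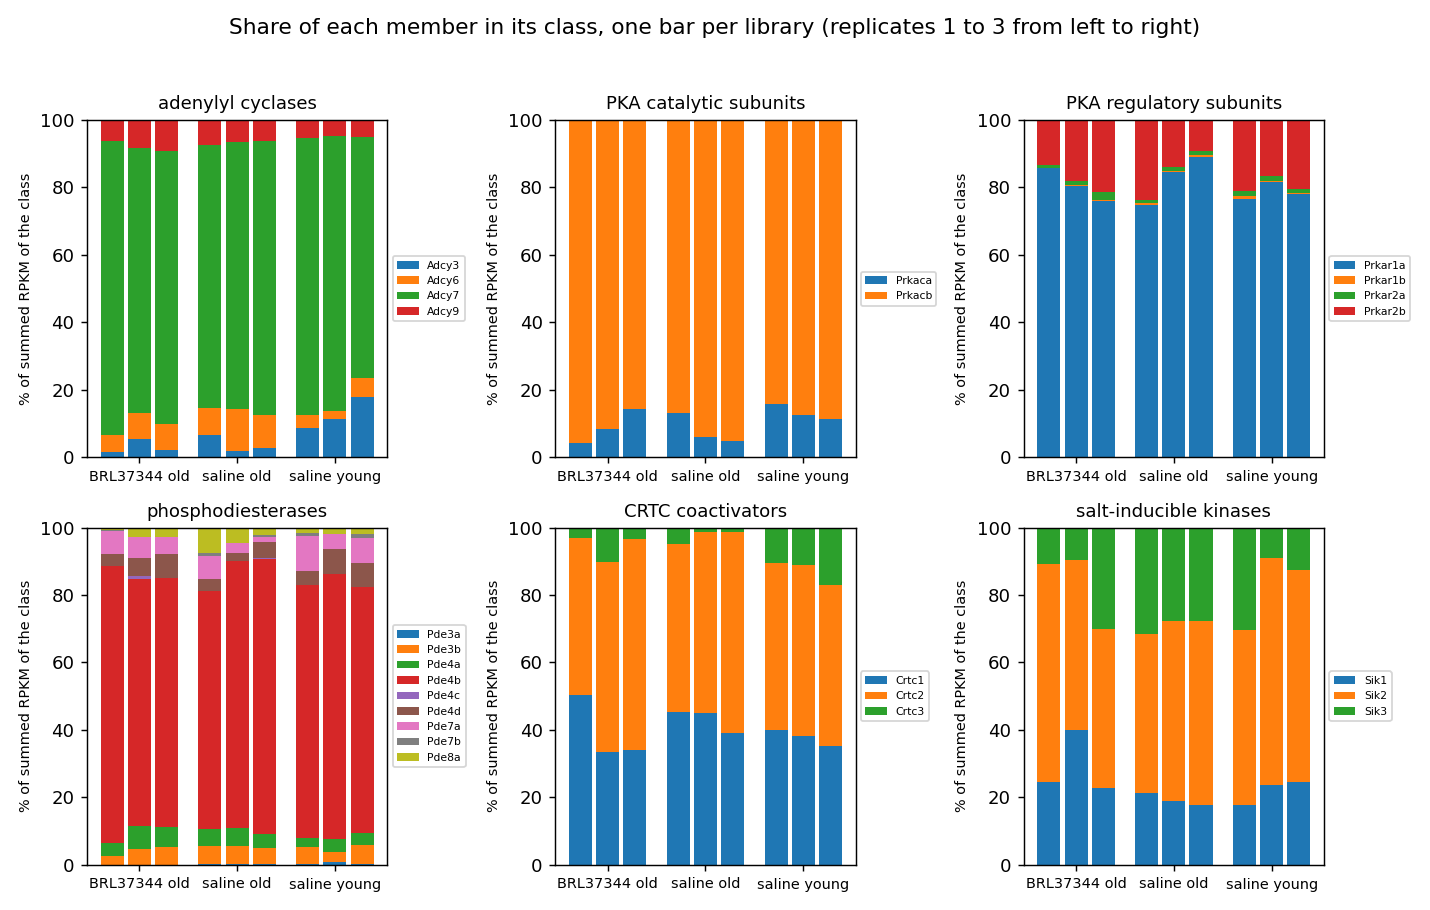
Share of each gene in the summed RPKM of its class (%), 1 bar per library with replicates 1 to 3 from left to right in each group. Adcy7, Prkacb, Prkar1a and Pde4b fill most of their classes in every library, and the shares of Adcy3 and Crtc3 are smaller in the old libraries than in the saline young ones.

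Around the 48 genes, 142 further entries of the pathway were examined in lists, 139 of them distinct genes in the table, of which 94 were tested. Gpr183 and Gng11 were called higher and Mc5r lower in each old group against saline young, and both comparisons share the saline young libraries. Over all tested genes 1.18% were called higher and 0.4% lower in saline old, and 0.695% and 0.074% in BRL37344 old, each against saline young. In BRL37344 old against saline old, 0 of the 94 were called, against 0% of all tested genes. Over the 94 genes 36 changes were positive in saline old against saline young, with a median of -0.10. In BRL37344 old against saline old 59 were positive, with a median of 0.10. Over all tested genes 47.3% and 51% were positive in these comparisons, with medians of -0.02 and 0.01. Both comparisons use the saline old libraries. Mc5r, a Gs-coupled melanocortin receptor, fell to 9.35 ± 1.40 RPKM in saline old, against 23.2 ± 0.997 RPKM in saline young (SD, n = 3; log2 change -1.27 ± 0.19, adjusted p = 0.00957), with 11 ± 2.35 RPKM in BRL37344 old. Gpr183, a Gi-coupled oxysterol receptor, was higher by 3.75 ± 0.23 in saline old and by 3.14 ± 0.23 in BRL37344 old on the log2 scale, each against saline young (adjusted p = 7.56e-05 and 0.000285). Gng11, a G protein gamma subunit, had 214 ± 4.72, 214 ± 4.59 and 143 ± 9.17 RPKM in BRL37344 old, saline old and saline young (SD, n = 3; log2 change 0.58 ± 0.09 in saline old, adjusted p = 0.00957). The calls of Mc5r, Gpr183 and Gng11, and the change of Per1 below, are not given without the libraries highest in neutrophil markers. Of the 6 other adenylyl cyclases 0 reached the filter. Of the 6 tested receptor kinases and arrestins, which switch such receptors off, 0 were called in any comparison. Over the 18 tested genes of the list of other CREB targets, 0 were called in any comparison, and 13 changes were positive in BRL37344 old against saline old with a median of 0.10, beside 51% positive over all tested genes. The clock gene Per1 had the smallest p of that list there, with 19.4, 18.6 and 11.1 RPKM in BRL37344 old and 4.83, 10.7 and 10.95 RPKM in saline old libraries (log2 change 0.90 ± 0.33, adjusted p = 0.839), and 5.82, 4.64 and 6.38 RPKM in saline young.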

How the data were processed

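The authors deposited a table of RPKM values per gene for the 9 libraries in which 0 appears as an offset of 0.0001 per transcript. The unit was inferred from the values, which scale with transcript length and depth, and RPKM cannot be told apart from FPKM. Per the labels' protocols, about 2000 sorted cells gave cDNA with SMART-Seq v4 and Nextera XT libraries, a kit that does not mark strand, sequenced on a NextSeq instrument. Per the submitters' processing notes, Trim Galore, STAR 2.5.3a and Partek were used with mm10. A further 18 value columns carry no library name and were not used, and 2 rows without a gene name were left out. The 48 genes, the further lists and the tests were chosen with earlier results of these data known.

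Genes with at least 1 RPKM in at least 3 libraries were tested on log2(RPKM + 0.5) with limma 3.58.1 in R 4.3.3 (trend, robust, 3 group means, 6 residual degrees of freedom), with Benjamini-Hochberg adjustment over all 13516. Values in every library are given for called genes, for the 8 genes with the smallest p in each comparison and for the highest gene of each role, and log2 changes for the first and second of these kinds; other genes by range, with exceptions stated. Depth was derived from 7470 genes with 1 annotated transcript of at least 1000 bases, shortened by 200 bases; 83.8% to 87.2% of values worth up to 10 reads then came within 0.05 of whole reads. At 1 RPKM, 2000 bases held 24.4 to 89.8 reads. Shares and class sums were compared with exact two-sided permutation tests. On simulated data with 200 changed genes, 61% of 2-fold and 92% of 4-fold changes were found in saline old against saline young, 54% and 93% in BRL37344 old against saline old, and 65% and 91% in BRL37344 old against saline young. The changed genes were drawn only from those with a mean log2(RPKM + 0.5) above 2, with a normally distributed spread. The shares found therefore do not cover lower genes, such as Adcy3, Crebbp and Nr4a2. Alternatives were other constants, filters, scalings, weights and variance models, a replicate block and left-out libraries. Coordinates are GRCm38 (mm10) from GENCODE.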

Additional observations from a re-analysis of the deposited data

How the results depend on the processing

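Under the alternatives, 0 of the 48 genes were called in BRL37344 old against saline old throughout. In saline old against saline young the count, 1, was 0 with no filter on low values, 10 with sample quality weights, 0 without trend and robust fitting, 0 without the 2 libraries highest in neutrophil markers, and 0 to 4 with a library left out. In BRL37344 old against saline young the count, 1, was 0, 2, 0 and 0 under these settings and 0 to 2 with a library left out. With weights, Gem joined Rgs1 as higher, and Adcy3, Adcy7, Akap9, Crtc3, Pde4d, Rgs2, Sik1 and Sik2 were lower in saline old against saline young. Counts over all tested genes moved too. They were 213 in saline old against saline young (1284 with weights, 140 with no filter, 83 without the 2 libraries, 96 to 591 with a library left out), 104 in BRL37344 old against saline young (169 with weights, 57 to 162 with a library left out) and 0 in BRL37344 old against saline old (3 with weights, up to 38 without BRL37344 old replicate 3). The causes were not tested. Of the recomputed log2 changes 0 reversed, 13 passed the threshold only in the alternative and 14 no longer passed it. With a replicate block, 1, 0 and 1 genes were called in saline old against saline young, BRL37344 old against saline old and BRL37344 old against saline young. Same-numbered libraries correlated at -0.05 to 0.19 in their deviations, and 2 of 9 libraries correlated best with their own number, so the numbers were not taken as pairs. With 3 libraries a group, many 2-fold changes would be missed, and genes near 1 RPKM rest on few reads in the shallow libraries.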
